A study of Drosophila melanogaster with 2 samples.

Results

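The 10 genes described here are regulators that pattern the dorsal side of the early fly embryo: zen, zen2, Doc1, Doc2, Doc3, pnr, ush, tup, peb and C15. They were chosen by symbol as a list for the dorsal ectoderm and the amnioserosa, and all 10 are among the 7629 genes of the normalized table and among the 7619 genes that passed the filter on low counts (at least 3 counts in at least 5 embryos). Each gene was described along 84 single wild-type Drosophila melanogaster embryos of the DGRP 737 line (an inbred line from a panel of sequenced wild-derived lines), placed in the pseudo-time order of the deposited table. Pseudo-time is the order of the embryos inferred from their transcriptomes, so that a position counts embryos and not minutes.

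The dorsal-most cells of the blastoderm are those with the highest activity of Decapentaplegic (Dpp), the fly BMP ligand, which acts together with a second ligand, Screw. These cells become the amnioserosa, an extraembryonic epithelium that covers the dorsal side and is needed for germ-band retraction and dorsal closure. The cells beside them form the dorsal ectoderm. All 10 genes encode nuclear regulators: Zen, Zen2 and C15 are homeodomain proteins, the 3 Dorsocross (Doc) proteins are T-box factors, Tup is a LIM-homeodomain factor, Pnr is a GATA factor, Ush is a zinc finger cofactor that binds Pnr, and Peb (also called Hindsight) is a zinc finger protein.

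Embryos came from 2 cages (47 from cage A and 37 from cage B) and from 3 collection intervals, with 28 embryos from 0-1 h, 33 from 1-2 h and 23 from 2-3 h. All were untreated and share 1 genotype. By expression, the study's authors sorted them into clusters 1 to 7 and 9, with 29, 11, 6, 3, 9, 7, 10 and 9 embryos in that order, and 61 embryos were genotyped (30 females and 31 males). Each library was made by CEL-Seq2, which counts unique molecular identifiers (UMIs) at the 3' end of polyadenylated RNA, and the total per embryo ran from 274491 to 2105275 UMIs with a median of 932058. Normalized counts are scaled to the smallest total, so that 1 UMI in the shallowest embryo is a normalized count of 1, and they are given here without the constant of 0.1 that the authors added. In a whole embryo, more cells that express a gene and more RNA per cell cannot be told apart. Summed maternal transcripts (bcd, osk, nos, pgc, vas, dhd and yl) went from a cluster mean of 1098 in cluster 1 to 11.6 in cluster 9. Summed markers of other regions were higher in cluster 9 than in cluster 1, except for germ cells. Those of the mesoderm went from 61.6 in cluster 1 to 399.9 in cluster 9. Those of the neuroectoderm went from 1.38 in cluster 1 to 336 in cluster 7 and 292 in cluster 9. Those of endoderm and yolk went from 6.56 to 470 and 453 in the same clusters. Summed germ cell markers went from 439 in cluster 1 to 25.5 in cluster 5 and 62.4 in cluster 9. The part of all these markers in the members' values was not tested. Of the 4 genes listed as markers of later stages, Hml and repo were not in the table. The sum of the other 2, elav and Mhc, went from 2.63 in cluster 1 to 15.6 in cluster 7 and 31.8 in cluster 9.

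In the release 6 assembly, zen lies on chromosome 3R from 6752864 to 6754194 and zen2 from 6743135 to 6744136, both on the minus strand, 8727 bp apart with CG34297 between them. The Doc genes form another cluster of paralogs, on chromosome 3L, with Doc3 from 9005196 to 9007249 on the plus strand, Doc2 from 9012686 to 9019246 on the minus strand and Doc1 from 9041375 to 9045042 on the plus strand. C15 (from 21499986 to 21512814) and pnr (from 16026079 to 16041796) are on chromosome 3R, and ush (from 476220 to 540560) and tup (from 18859507 to 18881261) are on chromosome 2L. The only X-linked gene of the 10 is peb, from 4617564 to 4627206. An annotated non-coding RNA, lncRNA:CR46258, overlaps a ush exon on the same strand and was not in the normalized table; whether its reads were counted for ush was not tested. On the opposite strand, cbt lies within the span of ush without overlap of a ush exon, and a transposable element (BS) overlaps a pnr exon.

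The 10 genes reached their highest levels in a sequence: zen2 in cluster 4, zen in cluster 5, Doc1 in cluster 7 and the other 7 genes in cluster 9. Onset was read from a running median of 5 embryos, as the earliest position where it came to 20% of its peak. It fell at position 34 for zen2 and 47 for zen. Next came position 50 for Doc1, 59 for Doc2 and tup, 60 for Doc3, 66 for ush, 74 for peb and 75 for pnr and C15. With the threshold at 10% or 50%, the onsets ran from 32 to 42 for zen2, from 42 to 47 for zen and from 72 to 77 for peb, pnr and C15 together, while those of Doc1, Doc2, Doc3 and tup moved within positions 49 to 70. The order within this middle group therefore depended on the threshold.

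**Figure D1:**
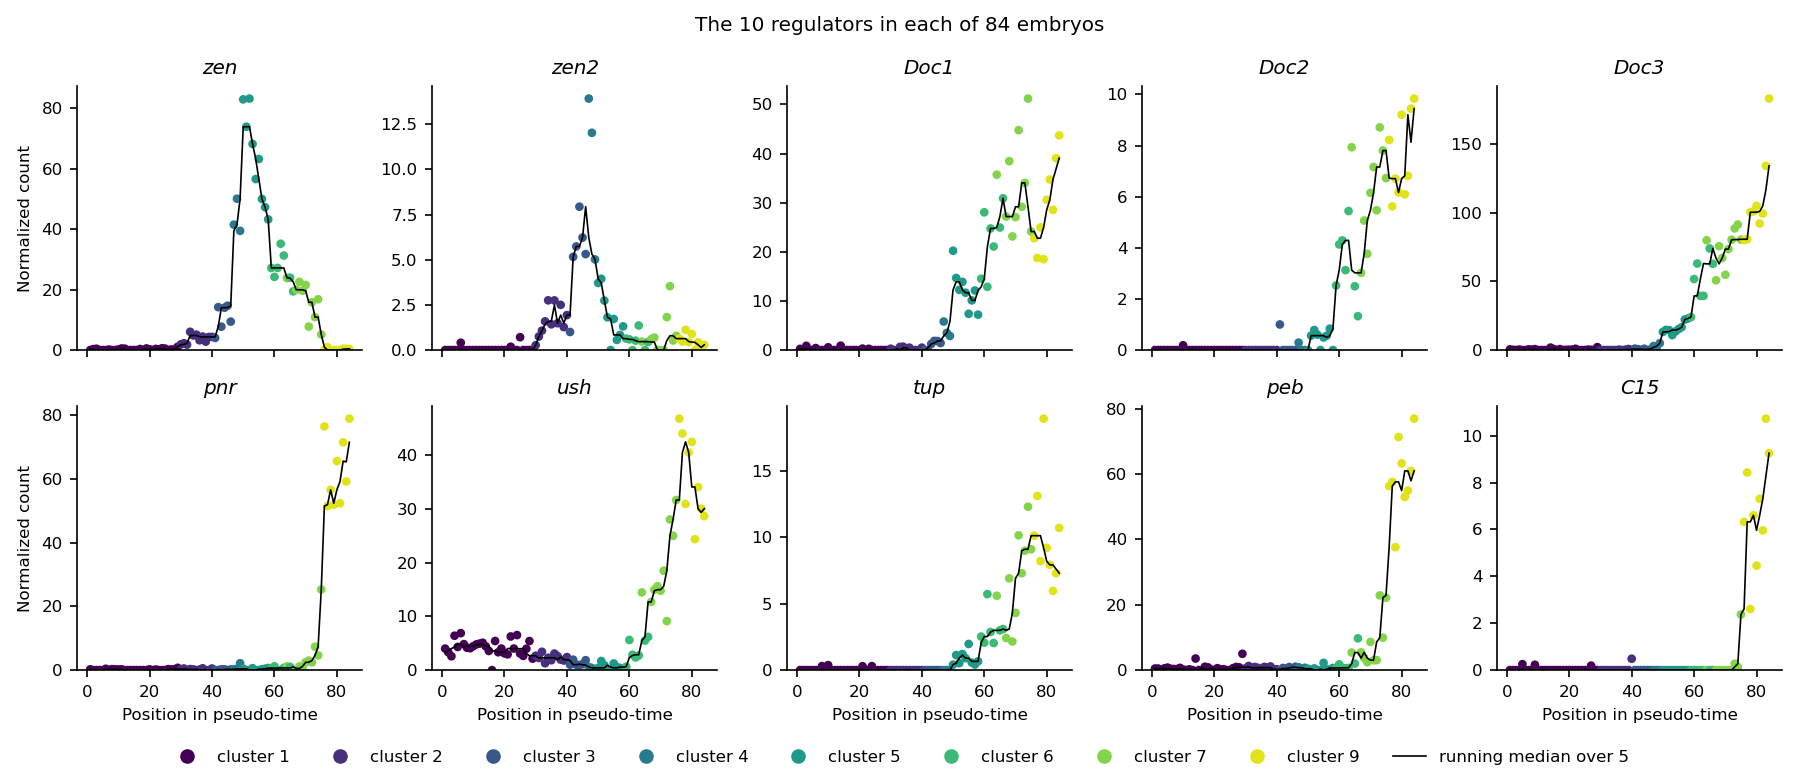
Normalized count (vertical axis, a separate scale per gene) of each of the 10 genes against pseudo-time position for the 84 embryos. Points are single embryos coloured by cluster and the line is the running median over 5 embryos; zen and zen2 rise and fall, Doc1 and Doc3 rise from cluster 3 or 4 on, tup and Doc2 from cluster 5 or 6 on, and pnr, peb and C15 rise at positions 74 to 76.

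Of the 10 genes, zen2 had the earliest onset position, which is read against each gene's own peak. It was not alone in rising from cluster 1 to 2, since zen rose over the same step. In cluster 1 zen2 was counted in 3 of 29 embryos (5 UMIs in all). Every embryo of cluster 2 held zen2, at 0.267 to 2.75 with a median of 1.49. It ran from 1.00 to 7.94 in cluster 3 with a median of 5.53. The 3 embryos of cluster 4 had 13.9, 12.0 and 5.02, and those of cluster 5 lay between 0 and 3.95 with a median of 1.72. All embryos of cluster 4 thus lay above all embryos of cluster 5, and the other neighbouring clusters up to that point overlapped. Differences between clusters were tested with edgeR's quasi-likelihood test on the recovered UMI counts, and a call needed a p below 0.01 after Benjamini-Hochberg adjustment together with an absolute log2 difference above 1. In that test zen2 rose from cluster 1 to 2 (log2 fold change 4.47 ± 0.38, SE, adjusted p = 6.04e-14), from cluster 2 to 3 (1.83 ± 0.28, adjusted p = 2.14e-05) and from cluster 3 to 4 (1.02 ± 0.30, adjusted p = 0.00943), and it fell by 2.34 on the log2 scale from cluster 4 to 5 (SE 0.40, adjusted p = 5.23e-05). The call from cluster 3 to 4 was lost in 8 of 11 alternatives, among them DESeq2, library totals and cage as a covariate (0.94). From cluster 6 on, the cluster means of zen2 stayed between 0.474 and 0.844, which is 4.59% to 8.18% of its mean in cluster 4.

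The neighbouring homeobox gene zen, which is needed for amnioserosa fate, rose at the same step but peaked later and more broadly. Its values ran from 0 to 1.07 in cluster 1 (median 0.166) and from 1.79 to 6.03 in cluster 2 (median 4.32), so the clusters did not overlap. Cluster 3 embryos held 4.00 to 14.7 with a median of 11.7, and the cluster 4 embryos 41.5, 50.1 and 39.4, all above cluster 3. The highest values, 43.2 to 83.2 with a median of 63.2, were in cluster 5. The level then declined, to 19.4 to 35.2 in cluster 6 (median 27.1), 5.14 to 23.8 in cluster 7 (median 18.2) and 0 to 0.937 in cluster 9 (median 0). In cluster 9 only 5 UMIs of zen were counted, in 4 of 9 embryos, and its mean of 0.231 ± 0.325 (SD, n = 9) was close to that of cluster 1, 0.216 ± 0.260 (SD, n = 29).

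In the edgeR test zen rose over each of the first 3 steps, by a log2 fold change of 3.84 ± 0.27 (SE, adjusted p = 2.75e-16), 1.62 ± 0.23 (adjusted p = 7.78e-06) and 2.08 ± 0.22 (adjusted p = 3.59e-09). From cluster 4 to 5, where zen2 fell, zen had a log2 fold change of 0.67 ± 0.19 (adjusted p = 0.00583), under the fold threshold. The decline was called from cluster 5 to 6 (-1.17 ± 0.14, adjusted p = 2.81e-07) and from cluster 7 to 9 (-6.11 ± 0.42, adjusted p = 7.03e-14), and the embryos of these pairs of clusters did not overlap. Between clusters 6 and 7 the estimate was -0.80 ± 0.21 (adjusted p = 0.0106).

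**Figure D2:**
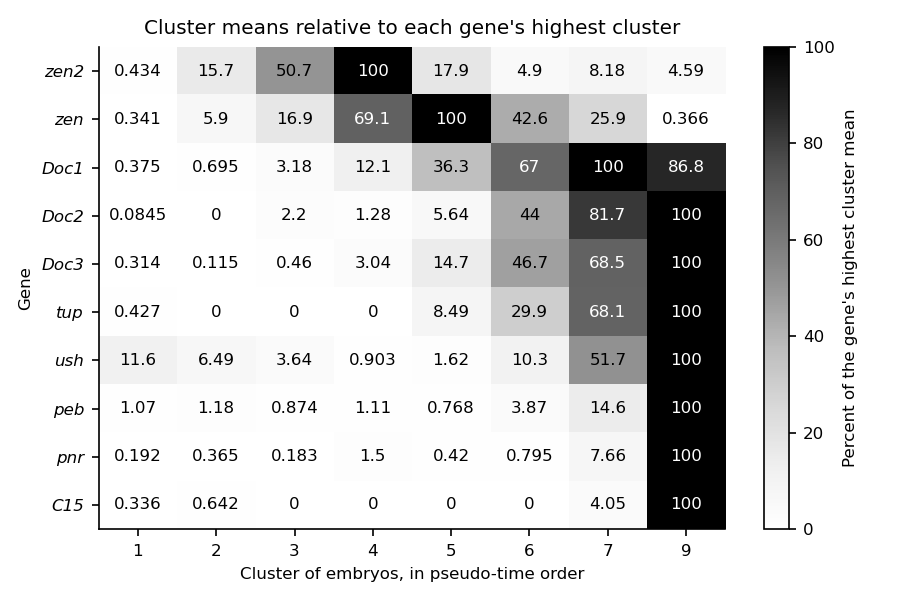
Mean of each gene in each cluster of embryos (columns, in pseudo-time order) as a percent of that gene's own highest cluster mean (rows, shading and printed values). zen2 and zen peak in clusters 4 and 5, Doc1 in cluster 7, and the remaining genes in cluster 9, where zen is at 0.366% of its peak.

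The 3 Doc genes, T-box paralogs that act redundantly in the amnioserosa and later in the heart primordium, rose over clusters 3 to 6, and Doc1 was called first. Its cluster 2 embryos ran from 0 to 0.688 with a median of 0, cluster 3 embryos from 0 to 1.87 with a median of 1.34, and the cluster 4 embryos had 5.80, 3.49 and 2.87. It then reached 7.21 to 20.2 in cluster 5 (median 12.1), 12.9 to 30.9 in cluster 6 (median 24.7) and 23.1 to 51.2 in cluster 7 (median 31.6), and stood at 18.5 to 43.7 in cluster 9 (median 28.5). Clusters 3, 4 and 5 were separate from each other, whereas clusters 5 to 9 overlapped with their neighbours. Doc1 was called at 4 successive steps, from cluster 2 to 6, with log2 fold changes of 2.43 ± 0.58 (SE, edgeR adjusted p = 0.0039), 1.75 ± 0.48 (adjusted p = 0.0053), 1.61 ± 0.34 (adjusted p = 0.000502) and 1.00 ± 0.19 (adjusted p = 0.000132), the last being just over the fold threshold. That last call was lost in 5 of 9 alternatives, among them library totals and cage as a covariate (0.98, adjusted p = 0.000107). Between clusters 7 and 9 its estimate was -0.31 ± 0.16 (adjusted p = 0.0806).

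Doc3 was first called a step later than Doc1. Cluster 3 embryos held 0 to 1.00 (median 0.527) and the cluster 4 embryos 2.90, 1.94 and 5.02. Values then ran from 10.9 to 22.9 in cluster 5 (median 14.7), from 23.99 to 73.8 in cluster 6 (median 51.6), from 50.7 to 91.3 in cluster 7 (median 77.7) and from 80.01 to 182.9 in cluster 9 (median 100.2). Clusters 4, 5 and 6 each lay wholly above the cluster before. The log2 fold changes of these steps were 2.79 ± 0.66 (SE, edgeR adjusted p = 0.00148), 2.52 ± 0.34 (adjusted p = 2.31e-06) and 1.74 ± 0.18 (adjusted p = 2.81e-08). The later steps of Doc3 were under the fold threshold, with 0.46 ± 0.16 (adjusted p = 0.0542) from cluster 6 to 7 and 0.44 ± 0.13 (adjusted p = 0.00319) from cluster 7 to 9.

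Doc2 had few UMIs until cluster 6. It was counted 17 times in the 58 embryos of clusters 1 to 5, of which 14 were in cluster 5, where it ran from 0 to 0.836 (median 0.561). All 7 embryos of cluster 6 held it at 1.32 to 5.44 (median 3.13), above every embryo of cluster 5, and this step was the only 1 called for Doc2, at 2.66 on the log2 scale (SE 0.42, edgeR adjusted p = 1.15e-05). Cluster 7 ran from 3.02 to 8.71 (median 6.44) and cluster 9 from 5.62 to 9.84 (median 6.81), overlapping each other. In cluster 5, when Doc1 was at 36.3% of its highest cluster mean, Doc3 was at 14.7% and Doc2 at 5.64% of theirs.

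The LIM-homeodomain gene tup, known for roles in the amnioserosa and the heart, was not counted in any of the 20 embryos of clusters 2 to 4. In cluster 5 all 9 embryos held it, at 0.413 to 1.97 (median 0.655, 22 UMIs in all). Set against the limit of 3 counts over the embryos of cluster 4, the level in cluster 5 was at least 2.08-fold higher. The edgeR adjusted p of this step was 0.00874, and it went above 0.01 when any single embryo of cluster 4 was left out, as it did with DESeq2. Cluster 6 followed at 2.04 to 5.72 (median 2.87), again without overlap, with a log2 fold change of 1.83 ± 0.39 (SE, adjusted p = 0.00061). Cluster 7 ran from 2.15 to 12.3 (median 7.10) and cluster 9 from 5.96 to 18.9 (median 9.21), and neither later step was called.

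The early embryos held more of ush, relative to its own later level, than of the other 9 genes: its mean in cluster 1 was 11.6% of its highest cluster mean, against at most 1.07% for the others. In cluster 1 ush ran from 0 to 6.87 with a median of 4.07, and 28 of the 29 embryos held it. Values declined to 1.27 to 3.41 in cluster 2 (median 2.29), 0.934 to 1.94 in cluster 3 (median 1.05) and 0.580, 0.388 and 0 in the cluster 4 embryos. The clusters on the way down overlapped except for clusters 3 and 4, and no step down passed both thresholds (cluster 1 to 2, log2 fold change -0.86 ± 0.17, SE, edgeR adjusted p = 5.13e-05). The lowest running median was at position 48. Cluster 5 embryos ran from 0 to 1.69 (median 0.418). A rise followed, to 0.631 to 6.18 in cluster 6 (median 2.86), 9.11 to 31.7 in cluster 7 (median 15.3) and 24.4 to 46.8 in cluster 9 (median 34.1). It was called from cluster 5 to 6 (2.47 ± 0.43, adjusted p = 4.73e-05) and from cluster 6 to 7 (2.18 ± 0.27, adjusted p = 1.33e-05), and in the latter step all embryos of cluster 7 lay above cluster 6. From cluster 7 to 9 the estimate was 0.84 ± 0.17 (adjusted p = 6.31e-05), under the fold threshold.

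Pnr, the GATA factor that Ush binds, rose after ush. Clusters 1 to 6 held between 3 and 14 UMIs of pnr each, with no embryo above 2.15. Cluster 7 ran from 0 to 25.3 with a median of 2.45, and cluster 9 from 51.5 to 78.99 with a median of 59.2. Cluster 9 did not overlap with cluster 7 and edgeR gave a log2 fold change of 3.64 (SE 0.37, adjusted p = 3.37e-10). When ush stood at 51.7% of its highest cluster mean, in cluster 7, pnr stood at 7.66%.

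A similar late step was seen for peb, a zinc finger gene needed to maintain the amnioserosa during germ-band retraction. The mean stayed between 0.454 and 0.697 in clusters 1 to 5. Cluster 6 embryos ran from 0.521 to 9.71 (median 0.715), cluster 7 embryos from 2.42 to 22.9 (median 5.40) and cluster 9 embryos from 37.6 to 76.96 (median 57.6). Only cluster 9 was separate from the cluster before it, at 2.64 on the log2 scale (SE 0.28, edgeR adjusted p = 7.52e-10). The steps from cluster 5 to 6 (2.01 ± 0.64, adjusted p = 0.0182) and from cluster 6 to 7 (1.79 ± 0.54, adjusted p = 0.0276) did not pass the threshold for p.

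The homeobox gene C15, expressed in the amnioserosa, was not counted until late, apart from 5 UMIs in clusters 1 and 2. No UMI was counted in the 25 embryos of clusters 3 to 6, and 8 were counted in 3 embryos of cluster 7, of which 6 were in the embryo at position 75. All 9 embryos of cluster 9 held C15, at 2.61 to 10.7 with a median of 6.61, above every embryo of cluster 7. By edgeR the difference was 4.51 on the log2 scale (SE 0.47, adjusted p = 7.44e-10).

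The embryo at position 75 is the last of cluster 7 and stood apart from the rest of its cluster for pnr and C15. It held 25.3 of pnr and 2.37 of C15, against at most 7.35 of pnr and 0.272 of C15 in the rest of cluster 7 and at least 51.5 and 2.61 in cluster 9. Its peb value of 22.2 was below the highest of the cluster, 22.9. Without this embryo, the log2 fold changes from cluster 7 to 9 were 4.43 for pnr, 5.95 for C15 and 2.88 for peb, and the same 4 genes were called.

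Between neighbouring clusters, the counts of called genes were read against the share of all 7619 tested genes that was called. From cluster 1 to 2, 2 of the 10 genes were called, both higher, where 4.86% of all genes were called, 1.01% higher and 3.85% lower. From cluster 2 to 3, 3 were called higher (3.44% of all genes called, 1.23% higher and 2.21% lower), and from cluster 3 to 4, 4 were called higher (12.8% called, 2.61% higher and 10.2% lower). From cluster 4 to 5, 3 were higher and zen2 was lower (20% called, 4.38% higher and 15.6% lower).

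The step from cluster 5 to 6 called the most members, 5 higher (Doc1, Doc2, Doc3, ush and tup) and 1 lower (zen), at a background of 9.41% called, 3.79% higher and 5.62% lower. The median log2 fold change of the 10 genes was 1.50 at this step, against 0.014 over all genes. From cluster 6 to 7 only ush was called (2.18% called, 0.984% higher and 1.19% lower). From cluster 7 to 9, pnr, peb and C15 were higher and zen was lower, at a background of 36.9% called, 21.1% higher and 15.8% lower, so that the share of members called was near that of all genes. Over the 7 steps the 10 genes were called higher 21 times and lower 3 times. Over all genes, lower calls outnumbered higher ones at each step up to cluster 7, and higher ones did from cluster 7 to 9. Apart from ush, the 10 genes were at 1.07% or less of their highest cluster mean in cluster 1. That left them little room for lower calls before they rose, so that their balance of calls is a description. The member calls lost in the most alternatives were those of zen2 (8 of 11) and Doc1 (5 of 11) from cluster 3 to 4. With them were tup from cluster 4 to 5 (8 of 11) and Doc1 from cluster 5 to 6 (5 of 9). The clusters rest on the expression of these embryos, and the p-values are therefore not independent of the grouping.

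**Figure D3:**
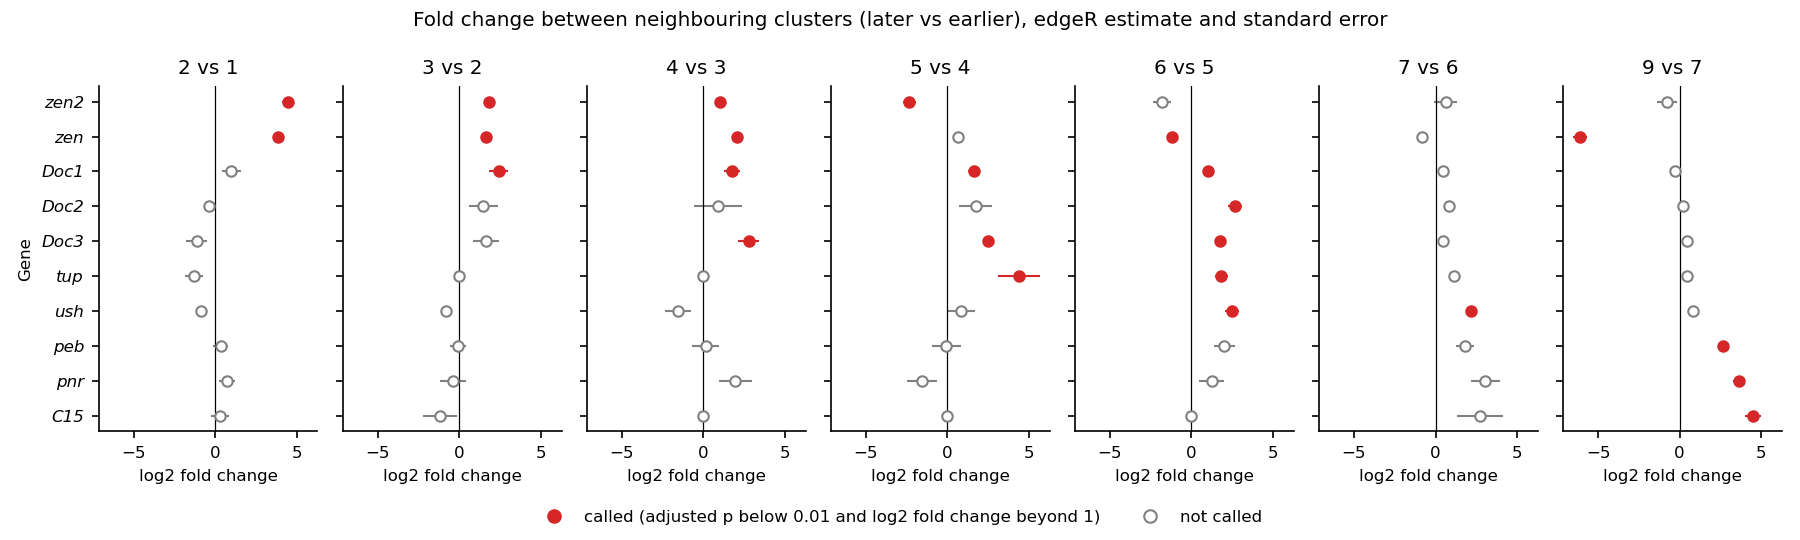
Log2 fold change (horizontal axis) of each gene between neighbouring clusters, later against earlier, in 7 panels. Points are edgeR estimates with standard errors worked out from the F statistic of the test, and filled red points passed both thresholds. The red points move from zen2 and zen on the left to pnr, peb and C15 on the right.

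Cluster 4 holds 3 embryos, and the calls that rest on it moved with single embryos. From cluster 3 to 4, the calls of zen2 and Doc1 were lost without the embryo at position 47 or the embryo at position 48, and that of Doc3 without the embryo at position 49, while zen was called each time. From cluster 2 to 3, Doc1 was called neither in cage A alone nor in cage B alone.

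Other genes of the Dpp pathway were called higher mostly at the steps up to cluster 5. Of 20 listed genes of the pathway 19 were tested, and 4, 6, 9 and 8 were called higher over the steps from cluster 1 to 5. As shares of the list, 21.1%, 31.6%, 47.4% and 42.1% were higher over these 4 steps, against 1.01%, 1.23%, 2.61% and 4.38% of all genes. From cluster 4 to 5, 3 were called lower (15.8%, against 15.6% of all genes). From cluster 5 to 6, 1 was higher (5.26%, against 3.79%) and 2 were lower (10.5%, against 5.62%). None was called from cluster 6 to 7, where 2.18% of all genes were. From cluster 7 to 9, 4 were higher (21.1%, the same as over all genes) and 8 lower (42.1%, against 15.8% of all genes). The median log2 fold change of the list was 1.14 from cluster 3 to 4 and -0.66 from cluster 7 to 9, against 0.016 and -0.002 over all genes. The list was written with earlier results of these data known, so that its shares are a description and no test of the pathway.

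The ligand gene scw had a course like that of zen2, with cluster means of 0.1202 ± 0.228 (SD, n = 29) in cluster 1, 93.6 ± 12.4 (SD, n = 3) in cluster 4 and 0.128 ± 0.291 (SD, n = 9) in cluster 9. Its step from cluster 1 to 2 measured 5.25 on the log2 scale (SE 0.32, edgeR adjusted p = 1.55e-18), and that of tsg, which encodes an extracellular Dpp-binding protein, was 4.53 ± 0.39 (adjusted p = 1.44e-13). The tsg paralog srw rose from cluster 1 to 2 (2.13 ± 0.50, adjusted p = 0.00418), from cluster 2 to 3 (4.09 ± 0.50, adjusted p = 8.22e-07) and from cluster 3 to 4 (1.99 ± 0.34, adjusted p = 2.26e-05). The ligand gene dpp was at 3.28 ± 1.88 (SD, n = 6) in cluster 3, 19.3 ± 2.41 (SD, n = 3) in cluster 4 and 66.2 ± 19.97 (SD, n = 9) in cluster 5, and was called higher at each of these steps.

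Of 25 other genes listed for the dorsal ectoderm and amnioserosa, 24 were tested. None was called from cluster 1 to 2, where 4.86% of all genes were. From cluster 2 to 3, 3 were higher (12.5%, against 1.23% of all genes). From cluster 3 to 4, 5 were higher (20.8%, against 2.61%) and 1 lower (4.17%, against 10.2%). From cluster 4 to 5, 11 were called higher (45.8%, against 4.38% of all genes) and 3 lower (12.5%, against 15.6%). From cluster 5 to 6, 10 were higher (41.7%, against 3.79%) and 1 lower (4.17%, against 5.62%). From cluster 6 to 7, 2 were higher (8.33%, against 0.984%). From cluster 7 to 9, 12 were higher (50%, against 21.1%) and 2 lower (8.33%, against 15.8%). This list was also written with earlier results of these data known, so that its shares are a description. Many of its genes are also expressed in other parts of the embryo, so that a whole-embryo count does not place them in the dorsal cells. Those called with the largest fold changes were nub (log2 fold change 5.59 ± 0.60, SE, edgeR adjusted p = 1.06e-07) and net (4.17 ± 0.77, adjusted p = 0.000121) from cluster 4 to 5 and caup, a homeobox gene of the Iroquois complex, from cluster 7 to 9 (3.90 ± 0.37, adjusted p = 1.08e-10).

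Among the best known genes of that list, Kr, a gap gene also expressed in the amnioserosa, rose to 122.5 ± 21.2 (SD, n = 9) in cluster 5. Ance, a peptidase gene, was at 15.6 ± 6.67 (SD, n = 10) in cluster 7 and 81.1 ± 12.9 (SD, n = 9) in cluster 9, which is the late step of pnr and peb. The TNF ligand gene egr went the other way at that step, from 70.5 ± 22.97 (SD, n = 10) to 16.98 ± 3.73 (SD, n = 9).

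Across all 84 embryos, the genes whose log2(normalized count + 1) followed each member most closely by Pearson's r were taken as a description, since the embryos share the pseudo-time order and many genes rise along it. For zen they were dunk (r = 0.98), Elba3 (0.97) and bnk (0.97), all with their highest cluster mean in cluster 5. For zen2 the closest were CG18269 (0.87), fd19B (0.85) and nullo (0.83), all highest in cluster 4. For Doc1 they were CG4440, link and CG12581 (each 0.97), for Doc3 they were Ama (0.99), Atx-1 (0.98) and Traf4 (0.98), and for Doc2 they were CG32982, tup and trn (each 0.96).

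The gene closest to tup was Doc2 (0.96), ahead of gbb and CG32982 (each 0.96). For pnr the closest were hh (0.98), tin (0.97) and gsb (0.97), for C15 they were CG34025 (0.97), en (0.97) and Alk (0.96), and for peb they were CG45263 (0.96), grn (0.95) and Optix (0.95). The lowest values besides those of zen2 were for ush, with CG1316 (0.89), CG10011 (0.89) and Pfrx (0.88). All genes named for the Doc genes, tup, pnr, C15, peb and ush had their highest mean in cluster 9.

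Collection intervals were set before sequencing and gave a coarser view of the same genes. The interval groups are still not independent of expression. The study used the transcriptomes to leave unfertilized eggs and older embryos out of the order. Of the 28 embryos collected at 0-1 h, 5 stood in clusters 5 to 9 (at positions 57, 75, 78, 82 and 84). These 5 held 658 of the 669 UMIs of pnr counted at 0-1 h (98.4%), 1390 of the 1416 of Doc3 (98.2%) and 86.5% of those of zen, but only 343 of the 795 of ush (43.1%). In the other 23 embryos no value of pnr was above 0.404 and none of zen above 0.593. At 1-2 h, 7 of the 33 embryos stood in clusters 6 to 9 and held 1933 of the 1977 UMIs of Doc3 (97.8%), and the embryo at position 83 alone held 65.4% of the 211 UMIs of pnr. Why these embryos were placed late was not tested.

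From 0-1 h to 1-2 h, zen2 and zen were called higher (2 of the 10 genes), where 4.13% of all genes were called, 0.433% higher and 3.70% lower. The zen2 values ran from 0 to 1.12 at 0-1 h (median 0) and from 0 to 13.9 at 1-2 h (median 1.08), a difference of 4.02 on the log2 scale (SE 0.59, edgeR adjusted p = 2.43e-06). Those of zen ran from 0 to 47.2 (median 0.187) and from 0 to 50.1 (median 4.82), with 2.41 ± 0.65 (adjusted p = 0.00685). The intervals overlapped for both genes. Without the 5 late-placed embryos 9 of the 10 genes, all but ush, were called higher, a count that is given as a description because those embryos were picked by their expression. The share of all genes called rose with it, from 4.13% to 15.6%. In cage B alone, no gene of the whole table was called.

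From 1-2 h to 2-3 h, 6 of the 10 genes were called higher and none lower, at a background of 36.1% called, 9.71% higher and 26.4% lower. They were zen (log2 fold change 1.82 ± 0.50, SE, edgeR adjusted p = 0.00108), pnr (2.64 ± 0.74, adjusted p = 0.00152), peb (2.17 ± 0.64, adjusted p = 0.00222), tup (1.85 ± 0.60, adjusted p = 0.0051), C15 (2.27 ± 0.74, adjusted p = 0.00515) and Doc2 (1.69 ± 0.60, adjusted p = 0.0099). Doc1 ran from 0 to 51.2 (median 0.635) at 1-2 h and from 7.21 to 35.7 (median 20.2) at 2-3 h, and was not called (adjusted p = 0.0266). Nor was Doc3 (adjusted p = 0.029), which ran from 0 to 133.9 (median 0.323) and from 10.9 to 104.8 (median 50.7). The ranges of the 2 intervals overlapped for all 10 genes. The share of all genes with overlapping ranges was not counted, either here or between clusters. The call of Doc2 was lost in 6 of 9 alternatives, among them DESeq2 and cage as a covariate, and that of tup in 4 of 9, among them DESeq2. With the embryos of cage B alone no member was called, where 23.2% of all genes were.

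Between the cages, with cluster in the fit, none of the 10 genes and none of all genes was called (0%), with 451 of all genes at an unadjusted p below 0.05. By edgeR, 2 of the 10 genes had an unadjusted p below 0.05, with the lowest for pnr (0.026, adjusted p = 0.827), and 1 did by DESeq2.

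Sex was tested over the 61 genotyped embryos with a spline of cluster number and its interaction with sex. None of the 10 genes was called, where 31 of all genes were (0.407%). In edgeR 2 of the 10 had an unadjusted p below 0.05, as did 536 of all 7619 tested genes. The lowest of the 10 was for Doc1 (0.0211, adjusted p = 0.499). In DESeq2 3 of the 10 had an unadjusted p below 0.05, and the number over all genes was not counted there.

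Since males carry 1 X chromosome, the X-linked gene peb was compared between the sexes within clusters 5, 6, 7 and 9. In cluster 9 the 5 females ran from 52.99 to 76.96 (median 60.96) and the 4 males from 37.6 to 71.3 (median 56.95), and the sexes overlapped. The mean difference, female minus male, was 6.11 (exact permutation test, two-sided, p = 0.444, adjusted over 4 clusters 0.698). In clusters 5, 6 and 7 it was 0.566, 4.99 and -1.37, with exact permutation p of 0.524, 0.0952 and 0.967. The design cannot reach p below 0.05 in cluster 6, where 0.0952 is the smallest p it allows. All 4 differences moved with single embryos. Without the embryo at position 55, 66 or 75 those of clusters 5, 6 and 7 were -0.12, 1.13 and 4.90, and that of cluster 9 was 0.0794 without position 78, 2.32 without position 84 and 11.3 without position 79. In cluster 6 the males are at positions 59 to 63 and the females at 65 and 66, so that sex and position cannot be told apart there. Averaged over the 4 clusters the difference was 2.57 (permutation test with 100000 permutations of sex within clusters, two-sided, p = 0.300).

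Doc1 was the only gene of the 10 whose females in cluster 9 all lay above all males, and no gene of the 10 had the reverse. Among all tested genes 3.32% had the females above and 2.11% the males above. The 5 females ran from 28.5 to 43.7 (median 34.7) and the 4 males from 18.5 to 25.0 (median 20.8). Doc3 overlapped, with females from 91.98 to 182.9 (median 104.8) and males from 80.01 to 100.8 (median 90.4). The males of cluster 9 are at positions 76 to 79 and the females at positions 80 to 84, so that sex and position cannot be told apart in this cluster.

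**Figure D4:**
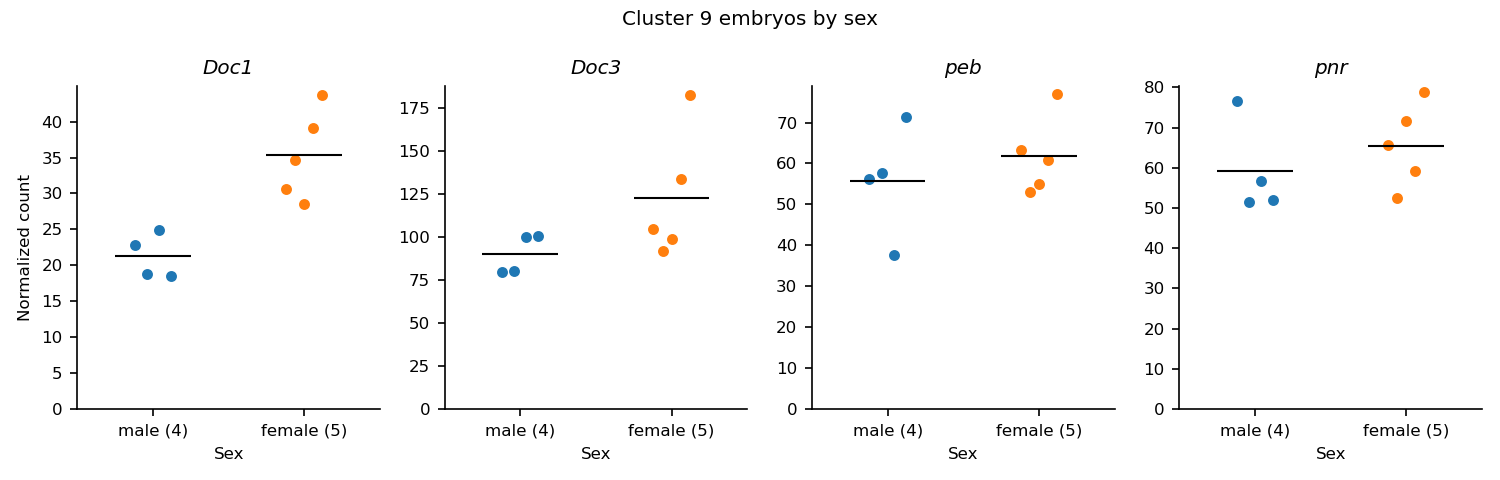
Normalized count (vertical axis) of Doc1, Doc3, peb and pnr in the 4 male and 5 female embryos of cluster 9. Points are single embryos in pseudo-time order from left to right and bars are means; Doc1 separates the sexes (18.5 to 25.0 against 28.5 to 43.7), whereas the other 3 genes overlap.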

How the data were processed

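Single-embryo RNA-seq of 84 embryos was analysed. As deposited by the authors, 2 raw tables hold UMI counts for 17807 genes and 192 barcodes per library, made with STAR 2.7.8a (STARsolo). The authors' table of normalized signal holds each count divided by the embryo's total, multiplied by the smallest total (274491) and increased by 0.1. From it UMI counts were recovered, and 100% of values were whole to within 0.0001. Cluster, sex, cage and interval of each embryo came from the study's supplementary tables and embryo names, and the last cluster is called 9 as in the study's text. Raw barcodes were not assigned to embryos.

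Counts were tested with edgeR 4.0.16 (quasi-likelihood, TMM factors) in R 4.3.3 over the 7619 genes for which 5 or more embryos held 3 or more counts. Calls needed an absolute log2 fold change above 1 as well as a Benjamini-Hochberg p under 0.01, and the sex test used the adjusted p alone (spline with 7 degrees of freedom). The test was checked on simulated counts for clusters 5 against 4 and 9 against 7. Limits set by 3 counts cover counting error only. Alternatives were DESeq2 1.42.0, limma 3.58.1, other filters, library totals, cage as a covariate, single cages, 1 fit over all embryos and leaving out single embryos. Permutation tests used SciPy 1.17.1.

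All 10 genes were named. From the lists, the 3 called genes with the largest fold change were named, with Ance, dpp, scw, Kr and egr. Genes and lists were chosen with earlier results of these data known. Positions of genes are from Ensembl release 115 of the release 6 assembly, which is newer than the annotation the authors used. Cluster pairs are nearest neighbours in pseudo-time, and each embryo is a biological replicate. Clusters 6 and 7 interleave, since the cluster 7 embryo at position 64 comes before the cluster 6 embryos at positions 65 and 66.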

Additional observations from a re-analysis of the deposited data

Results flagged for a closer look

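In 46 groups of 6 to 10 embryos (a gene in a cluster), the gap between the highest or lowest embryo and the next was set against the group's range, and 8 groups had an embryo that stood apart. For normally distributed values chance gives about 1 in 20 groups, a rate that does not hold for low counts with many zeros. In cluster 7 the embryo at position 75 was far above the rest for pnr (25.3, with the others at 0 to 7.35) and for C15 (2.37, with the others at 0 to 0.272). For peb, an embryo at position 66 held 9.71 in cluster 6, with the others at 0.521 to 2.00, and an embryo at position 55 held 2.21 in cluster 5, with the others at 0 to 0.655. In cluster 6 an embryo at position 61 held 5.72 of tup, with the others at 2.04 to 3.09. For zen2 an embryo at position 73 held 3.54 in cluster 7, with the others at 0 to 1.82. The other two rest on 1 or 2 UMIs: Doc2 at 1.00 in cluster 3 (1 UMI) and zen at 0.937 in cluster 9 (2 UMIs).

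The raw tables hold 38 more barcodes with at least 250000 UMIs than there are embryos in the order, and the raw tables were used in no comparison. Scaled as the embryos were, peb was above its highest value among the 84 embryos (76.96) in 15 barcodes, 8 in library 1 and 7 in library 2, up to 133.3 and with a median of 98.2. For tup 2 barcodes were above 18.9, up to 25.2. For pnr 1 barcode was at 80.3, against 78.99, and for zen 1 barcode was at 87.4, against 83.2. The other 6 genes had no barcode above the highest embryo. The study left unfertilized eggs and older embryos out of the order. Which embryos these barcodes belong to was not determined.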

How the results depend on the processing

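Of 32 member calls over the 9 comparisons of clusters and intervals, 13 were kept under every alternative run, and no called member changed direction. The number of called members moved by over 1.5 times as follows, with the share of all tested genes called in brackets. From cluster 2 to 3 it was 0 in cage B alone (0.669%). From cluster 3 to 4 it was 2 with DESeq2 (11.3%), 2 with library totals (13.2%) and 1 with limma (8.02%). With single embryos of cluster 4 left out it was 2 to 3 (10.4% to 12.4%). From cluster 6 to 7 it was 3 with library totals (2.26%), 2 in cage A (1.69%), 0 in cage B (0%) and 4 in 1 fit over all embryos (3.98%). From 0-1 h to 1-2 h it was 4 in cage A (5.49%), 0 in cage B (0%) and 9 without the 5 late-placed embryos (15.6%), an alternative chosen after seeing the data. Under it the uncalled log2 fold changes of pnr (-1.94), peb (-1.10), C15 (-1.23) and Doc3 (-0.00375) became 4.35, 3.23, 2.57 and 6.28. From 1-2 h to 2-3 h the number was 3 in cage A (27.9%) and 0 in cage B (23.2%). The causes were not tested, though single cages hold fewer embryos. The alternative without the embryo at position 75 was also chosen after seeing the data. The onset of ush came at position 4 with a threshold of 10%, since its early level passed it. The peb comparisons within clusters gave 0 clusters past 0.05 under each alternative. Cluster 4 has 3 embryos, and genes with few UMIs (C15, Doc2, tup) are limited by depth. The design holds no pairs, since each embryo was a separate sample, and no paired analysis was made. Cage as a covariate ended the calls of zen2 from cluster 3 to 4, tup from cluster 4 to 5, Doc1 from cluster 5 to 6 and Doc2 from 1-2 h to 2-3 h, and no other.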
